A study of Mus musculus with 19 samples.

Results

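Inguinal fat of mice that carried a tumour and made FGF21 from a virus was compared with inguinal fat of healthy mice, in 9 of the 19 libraries of the study. The members were chosen by label: the 5 mice with a tumour and FGF21 AAV and the 4 tumour-free mice. All were wild-type C57BL/6JRj mice kept at 29 °C, a thermoneutral temperature for mice, from 14 days before the day of tumour cell injection. The FGF21 AAV mice received CHX 207 fibrosarcoma cells, a mouse sarcoma line, in the right gastrocnemius muscle, and an adeno-associated virus (AAV) carrying FGF21 by vein 9 days earlier. The healthy mice received a control AAV by vein and PBS into the abdomen, and no tumour cells. All were killed 14 days after the tumour cell injection. The contrast therefore joins the tumour and the hormone. Fat of 5 tumour mice with control AAV (tumour controls) and of 5 tumour mice given efruxifermin, an FGF21 analogue, at 2 mg/kg in 6 injections, entered the same model and is given beside it. The labels give no sex, no age and no hour of tissue collection, and do not say which promoter drives the hormone.

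FGF21 is an endocrine hormone, made mainly by the liver, that acts on fat through the receptor FGFR1 and its co-receptor beta-klotho. White adipocytes store triglyceride and secrete adiponectin and leptin, and tumours that cause cachexia, the wasting of fat and muscle, lower this programme. Nearly every cell also runs a circadian clock, in which CLOCK and BMAL1 (gene Arntl) switch on genes with an E-box, the PER and CRY proteins repress them, the REV-ERB receptors (Nr1d1 and Nr1d2) hold down Arntl, and the output factors DBP, TEF and HLF bind D-boxes.

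Both genes that passed the test belong to the clock, so the start regions of these 2 and of 3 other clock genes are shown first. RefSeq windows from 250 bases before to 50 bases after a start site (build GRCm38.p6, 5′ to 3′ on the gene's strand) were at hand for 15 of the 19 genes of a clock list. Capitals mark an E-box (CACGTG) in Tef and Per1, D-boxes (TTANGTAA) in Per3 and a ROR element (TAGGTCA after AAN), the site to which REV-ERB binds, in Arntl. Both strands were searched, no match overlapped another, and 1 window is shown for genes with several. For Per1 and Arntl it is the window with the match, and their other window held none.
Dbp, chr7:45704997-45705296, plus strand: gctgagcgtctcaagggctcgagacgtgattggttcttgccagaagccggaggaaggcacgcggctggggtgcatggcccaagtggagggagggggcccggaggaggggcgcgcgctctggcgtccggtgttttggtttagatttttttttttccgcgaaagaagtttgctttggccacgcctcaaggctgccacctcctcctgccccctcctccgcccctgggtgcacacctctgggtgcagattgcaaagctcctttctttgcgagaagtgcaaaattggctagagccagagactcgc
Per3, chr4:151044616-151044915, minus strand: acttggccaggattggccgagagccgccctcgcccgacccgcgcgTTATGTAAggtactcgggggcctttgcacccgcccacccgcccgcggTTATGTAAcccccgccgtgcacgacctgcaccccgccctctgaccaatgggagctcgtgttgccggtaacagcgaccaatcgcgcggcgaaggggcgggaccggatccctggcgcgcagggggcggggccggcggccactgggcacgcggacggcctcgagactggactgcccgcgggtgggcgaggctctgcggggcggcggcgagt
Per1, chr11:69098699-69098998, plus strand: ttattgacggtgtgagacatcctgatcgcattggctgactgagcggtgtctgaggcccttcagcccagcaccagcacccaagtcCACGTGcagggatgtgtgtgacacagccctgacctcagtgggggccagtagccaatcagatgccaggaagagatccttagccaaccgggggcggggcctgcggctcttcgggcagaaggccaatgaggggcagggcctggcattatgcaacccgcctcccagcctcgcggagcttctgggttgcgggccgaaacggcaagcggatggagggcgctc
Tef, chr15:81802423-81802722, plus strand: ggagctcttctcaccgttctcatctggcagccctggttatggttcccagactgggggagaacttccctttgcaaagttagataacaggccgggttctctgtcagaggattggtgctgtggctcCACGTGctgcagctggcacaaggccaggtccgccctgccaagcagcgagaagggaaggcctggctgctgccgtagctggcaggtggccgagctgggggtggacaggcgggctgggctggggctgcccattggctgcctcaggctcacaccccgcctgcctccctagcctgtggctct
Arntl, chr7:113207261-113207560, plus strand: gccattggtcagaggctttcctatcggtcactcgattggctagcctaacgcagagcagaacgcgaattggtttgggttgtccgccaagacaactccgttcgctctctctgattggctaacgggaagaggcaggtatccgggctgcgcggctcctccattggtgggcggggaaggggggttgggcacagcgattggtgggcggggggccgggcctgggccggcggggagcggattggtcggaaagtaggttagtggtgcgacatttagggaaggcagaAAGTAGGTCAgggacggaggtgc
The D-boxes of Per3 begin 205 and 158 bases before the start site, the E-box of Per1 166 bases and that of Tef 127 bases before it, and the ROR element of Arntl 27 bases after it. The Dbp window held none of these letters. Of the 15 genes, 5 held an E-box, 1 a D-box and 1 the ROR element in any window. Counted by window, 6 of their 20 windows held an E-box. Of 32851 windows of all genes, 7.15% held the E-box, 2.32% the D-box and 0.219% the ROR element. A match is a description of the letters and not a measured binding site.

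Healthy libraries held 2693930 to 2844145 reads each and FGF21 AAV libraries 2011067 to 3209666, and 15694 to 17040 and 14078 to 16751 genes had a read. The labelled tissue carried its defining markers: the 8 adipocyte markers summed to 5656 to 15317 RPM (reads of a gene scaled to 1000000 reads of its library) in healthy fat and 8194 to 21629 RPM under FGF21 AAV. RNA of neighbouring tissue differed between libraries. The 14 B cell markers, a sign of the lymph node inside this fat pad, summed to 20.04 to 2602 RPM in healthy fat and 44.8 to 1895 RPM under FGF21 AAV, and 2 libraries of each group had a B cell score (mean log2(RPM + 1)) above 3. The 15 skeletal muscle markers summed to 592 to 50740 RPM in healthy fat and 53.7 to 3090 RPM under FGF21 AAV. Gm42418, a transcript that overlaps ribosomal RNA, took 1.93% to 4.24% of reads in healthy fat and 2.06% to 15.4% under FGF21 AAV.

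Fgf21 itself had 0 reads in all 9 libraries, which allows up to 0.272 RPM over the healthy group and 0.228 RPM over the FGF21 AAV group, so these libraries do not check the labels. Fgfr1, the receptor, had 210, 75.7, 73.4 and 156 RPM in healthy fat and 84.5, 161, 133, 163 and 136 RPM under FGF21 AAV. The groups overlapped, with a difference of 0.18 ± 0.34 in log2(RPM + 1) (SE; limma adjusted p = 0.958), and the sign turned in some alternatives. Klb, which codes for beta-klotho, was low in both groups, at 10.1 ± 7.20 RPM (SD, n = 4) and 6.28 ± 5.29 RPM (SD, n = 5). Its difference of -0.53 (95% interval -2.60 to 1.54) also turned sign in some alternatives. Tumour controls had 48.3 ± 18.8 RPM of Fgfr1 and 2.46 ± 2.65 RPM of Klb (SD, n = 5).

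Of 17013 genes tested, 2 rose under FGF21 AAV against healthy fat and 0 fell (limma adjusted p under 0.05; 0.0118% and 0% of genes). Both are clock genes. Dbp, an output factor of the clock, rose 8.72-fold and Per3, a period gene, 4.14-fold, both on the log2(RPM + 1) scale. On whole reads recovered from the table, edgeR called 1 gene higher and 0 lower, and DESeq2 13 higher and 10 lower, of which 9 had no read under FGF21 AAV. At an unadjusted p under 0.05 by limma, 190 genes were higher (1.12%) and 718 lower (4.22%). The values of the groups did not overlap in 86 genes above (0.505%) and 294 below (1.73%). The median difference over all genes was -0.22 on the log2 scale. The limma p-values rest on the spread between mice within groups, shared over all 4 groups.

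Dbp (ENSMUSG00000059824) had 14.1, 16.0, 9.35 and 3.66 RPM in the 4 healthy mice and 96.0, 73.1, 117, 81.6 and 92.1 RPM in the 5 FGF21 AAV mice. Every FGF21 AAV mouse lay above every healthy mouse. The difference was 3.12 ± 0.40 (log2, SE; limma adjusted p = 0.000788). Tumour controls had 22.0 ± 5.85 RPM and efruxifermin mice 33.2 ± 12.2 RPM (SD, n = 5 each). The tumour control mean thus lay on the same side of health, at 1.08 on the log2 scale (limma adjusted p = 0.372).

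Per3 (ENSMUSG00000028957) had 62.6, 36.4, 20.9 and 25.6 RPM in healthy fat and 108, 144, 171, 160 and 130 RPM under FGF21 AAV, again without overlap. The difference was 2.05 ± 0.34 (log2, SE; limma adjusted p = 0.0352). Tumour controls had 36.9 ± 12.4 RPM, close to the healthy mean of 36.4 ± 18.6 RPM, and efruxifermin mice 71.5 ± 27.1 RPM. Against tumour controls the FGF21 AAV libraries were higher by 2.05 for Dbp and 1.97 for Per3 (limma adjusted p = 0.0227 and 0.0107), a comparison that shares the FGF21 AAV libraries with the one above.

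Of the 18 clock genes tested, 2 rose (0.0118% of all genes), 7 had values of FGF21 AAV wholly above healthy (0.505% of all genes) and 0 wholly below (1.73%). The median difference of the list was 0.52, beside -0.22 over all genes, and stayed above 0 under every scaling run. DESeq2 called 5 members higher, Dbp, Per3, Per2, Tef and Nr1d2. Per2, Tef, Nr1d2 and Per1 were named by the rule for uncalled genes or list members, and the remaining clock genes are named outside it.

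Per2, a repressor of the clock, had 9.49, 21.5, 9.71 and 12.1 RPM in healthy fat and 41.0, 74.1, 107, 99.1 and 94.97 RPM under FGF21 AAV. The groups did not overlap, with a difference of 2.57 ± 0.49 that missed the threshold (limma adjusted p = 0.0831). With TMM scaling Per2 was past it (limma adjusted p = 0.0477). Per1, the other repressor of this kind, had 7.74, 15.6, 47.8 and 40.7 RPM in healthy fat and 65.4, 72.6, 66.8, 81.0 and 49.2 RPM under FGF21 AAV. The lowest FGF21 AAV value lay just above the highest healthy value, and the difference was 1.53 ± 0.47 (limma adjusted p = 0.803).

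Tef, a relative of Dbp, had 90.4, 65.3, 94.3 and 37.7 RPM in healthy fat and 180, 168, 218, 249 and 197 RPM under FGF21 AAV, without overlap. Hlf, the remaining output factor of that family, overlapped between groups at 16.4 ± 9.61 RPM (SD, n = 4) and 28.8 ± 21.2 RPM (SD, n = 5). Nr1d2 had 54.1, 37.5, 54.7 and 13.9 RPM against 101, 144, 128, 94.4 and 82.6 RPM, and Nr1d1 36.9, 18.9, 35.6 and 25.6 RPM against 84.1, 49.7, 60.9, 70.1 and 74.3 RPM. Both REV-ERB genes were thus higher in each FGF21 AAV mouse than in any healthy mouse, and neither passed the test by limma. The differences of Tef, Nr1d2 and Nr1d1 were 1.55, 1.58 and 1.21 on the log2 scale (limma adjusted p = 0.379, 0.424 and 0.858).

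On the activator side Arntl and Npas2 were lower on average, and none of Arntl, Npas2 and Clock was called. Arntl had 66.1, 71.6, 65.8 and 20.2 RPM in healthy fat and 21.9, 6.46, 20.8, 18.7 and 12.7 RPM under FGF21 AAV. Only healthy mouse 4 reached into the FGF21 AAV range, and that mouse also had the lowest Dbp. The difference was -1.69 (95% interval -2.86 to -0.52; limma adjusted p = 0.841). Npas2, which can stand in for CLOCK, had 6.70 ± 2.61 RPM (SD, n = 4) and 2.71 ± 3.02 RPM (SD, n = 5), with overlap. Clock itself had 134 ± 14.3 RPM and 112 ± 23.8 RPM, a difference of -0.28 on the log2 scale beside -0.22 over all genes. The cryptochromes Cry1 and Cry2 differed by -0.28 and 0.21 on the log2 scale, with 95% intervals of -1.37 to 0.80 and -0.55 to 0.98.

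**Figure D1:**
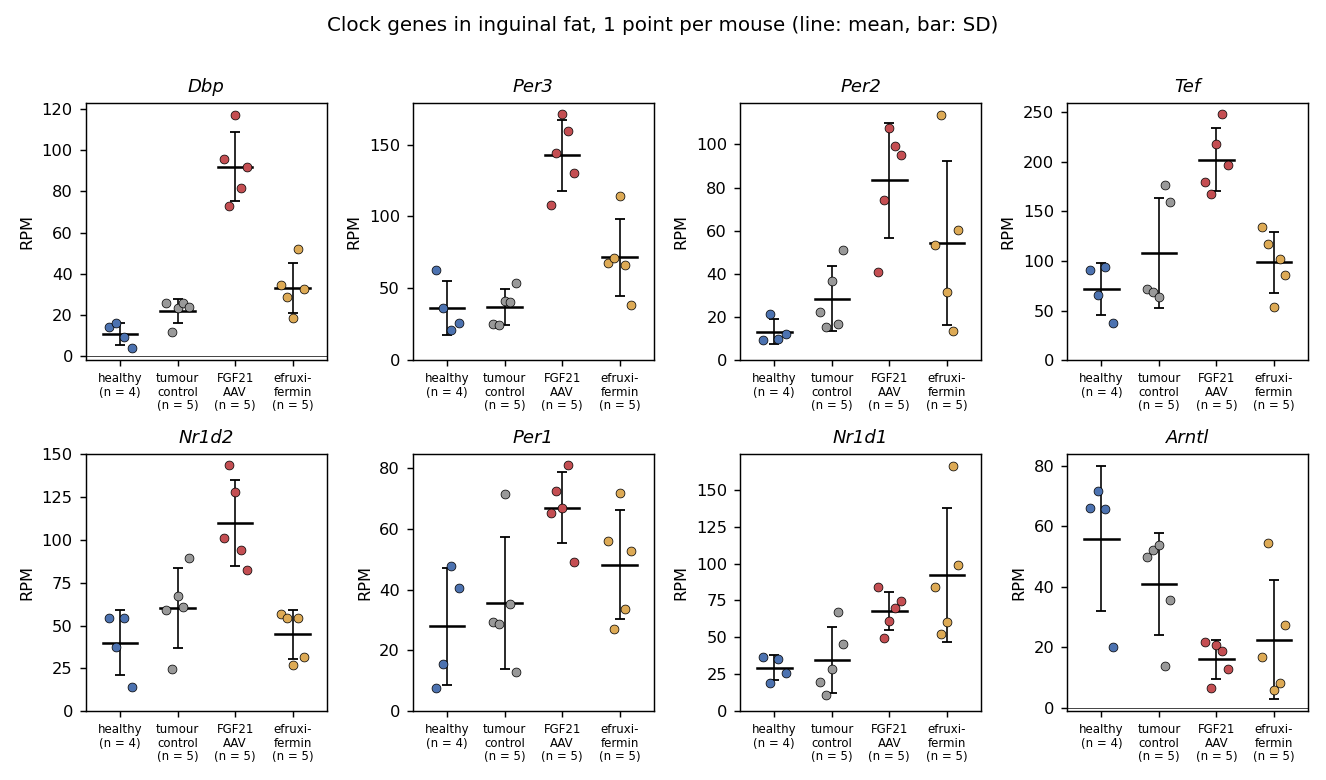
RPM of 8 clock genes in each mouse, by group, with the mean (line) and SD (bar). In Dbp, Per3, Per2, Tef, Nr1d2, Per1 and Nr1d1 all 5 FGF21 AAV mice lie above all 4 healthy mice, and in Arntl 3 healthy mice lie above 65 RPM while the FGF21 AAV mice lie at 6.46 to 21.9 RPM.

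**Figure D2:**
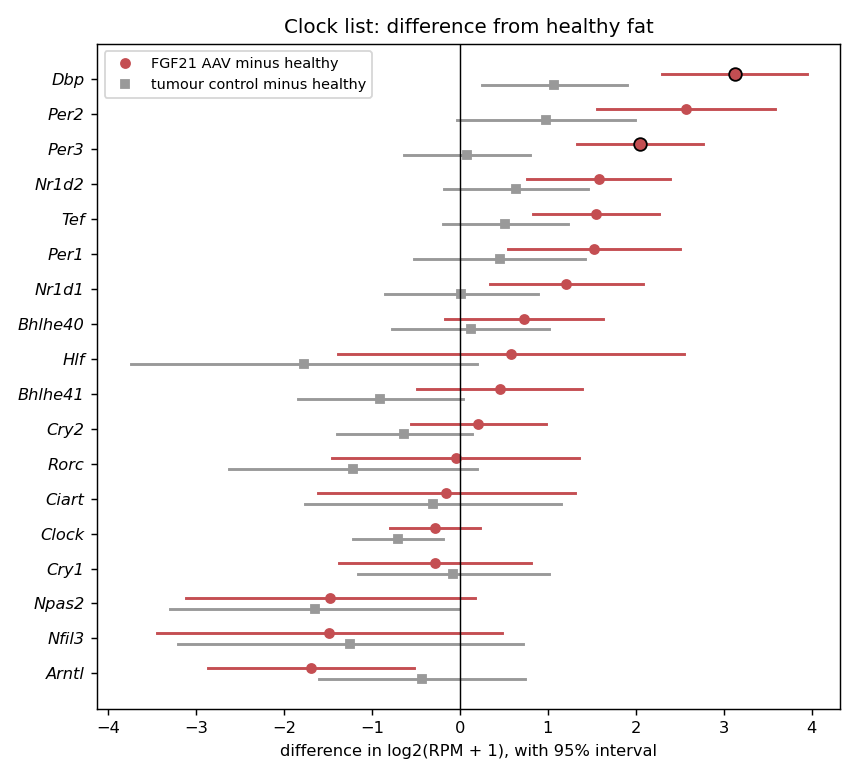
Difference from healthy fat in log2(RPM + 1) with its 95% interval for the 18 clock genes tested, under FGF21 AAV (circles) and in tumour controls (squares), which share the healthy libraries. Black outlines mark Dbp and Per3, the genes past the threshold under FGF21 AAV, at 3.12 and 2.05.

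The call of Dbp held without any single library, with edgeR (adjusted p = 0.00206) and with the scores of B cells and muscle in the model (limma adjusted p = 0.0124). Per3 was not past the threshold with edgeR (adjusted p = 0.110), with those scores (limma adjusted p = 0.810), with the share of Gm42418 as a covariate (limma adjusted p = 0.592) or without any one of 7 of the 9 libraries (FGF21 AAV 2, 3, 4 or 5, healthy 2, 3 or 4). Within the libraries with lymph node RNA the differences of Dbp and Per3 were 3.01 and 2.26, and within those without it 3.31 and 1.82, none past the threshold in these smaller fits (limma adjusted p = 0.500, 0.794, 0.438 and 0.605). The hour at which each mouse was killed is not in the labels, and its part in these values was not tested.

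Outside the clock list, the genes of smallest p that limma did not call and whose FGF21 AAV values lay wholly above healthy included Tspan4, Fam25c, Gm48259, Nrg4, Dcun1d3 and Alas2. Tspan4, a tetraspanin of the cell membrane, had 15.5, 17.4, 21.9 and 16.5 RPM in healthy fat and 52.8, 96.0, 99.0, 86.3 and 54.6 RPM under FGF21 AAV. The healthy mice lay close together, and the lowest FGF21 AAV mouse was well above them (difference 2.02 ± 0.38, limma adjusted p = 0.0831). Tumour controls had 14.6 ± 6.43 RPM and efruxifermin mice 61.6 ± 21.9 RPM. Tspan4 was past the threshold in 7 of 26 alternatives and Fam25c in 5, DESeq2 among them (adjusted p = 2.57e-05 for each). Fam25c had 13.7, 16.0, 3.597 and 3.30 RPM against 21.6, 81.5, 207, 37.1 and 111 RPM (difference 3.06 ± 0.59, limma adjusted p = 0.0831).

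Nrg4, which codes for neuregulin 4, a signal secreted by fat, had 34.5, 30.8, 43.9 and 63.0 RPM in healthy fat and 107, 63.2, 251, 110 and 163 RPM under FGF21 AAV. The lowest value under FGF21 AAV, in mouse 2, was barely above the highest healthy one (difference 1.57 ± 0.41, limma adjusted p = 0.484, DESeq2 adjusted p = 0.0436). Dcun1d3, a factor in protein neddylation, had 19.95 ± 7.26 RPM (SD, n = 4) and 47.4 ± 10.7 RPM (SD, n = 5), and DESeq2 called it (adjusted p = 0.0493). Gm48259 had 0.274 ± 0.354 RPM and 9.33 ± 7.77 RPM.

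None of the 6 adipocyte genes Lep, Lpl, Adipoq, Plin1, Fabp4 and Pparg was called, and the values of FGF21 AAV mice lay around or above those of healthy mice. Lep, the leptin gene, had 17.9, 43.8, 48.2 and 47.6 RPM in healthy fat and 86.6, 48.7, 67.8, 60.1 and 109 RPM under FGF21 AAV. The lowest FGF21 AAV value only just exceeded the highest healthy one. The difference of 0.94 ± 0.62 did not pass the test (limma adjusted p = 0.940), and healthy mouse 1 stood below the rest. Tumour controls had 15.4 ± 10.9 RPM. Lpl, the lipase that releases fatty acids from circulating lipoproteins, had 5238, 4137, 3496 and 7928 RPM against 7045, 7042, 5290, 5749 and 8391 RPM. The ranges overlapped through healthy mouse 4, and tumour controls were at 1909 ± 1111 RPM.

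Adipoq, the adiponectin gene, had 724, 851, 714 and 2192 RPM in healthy fat and 2017, 763, 516, 1077 and 1942 RPM under FGF21 AAV. Both groups spanned the same range, and the difference of 0.16 (95% interval -1.12 to 1.44; limma adjusted p = 0.986) turned sign in some alternatives. Plin1, which coats the lipid droplet, differed by 0.12 (95% interval -0.97 to 1.21) and also turned sign in some. Fabp4, the fatty acid carrier of adipocytes, had 4416 ± 2442 RPM (SD, n = 4) and 7779 ± 3392 RPM (SD, n = 5), and Pparg, the master regulator of adipocytes, 78.0 ± 24.2 RPM and 111 ± 64.9 RPM. In tumour controls Adipoq, Plin1, Fabp4 and Pparg were at 312, 181, 1584 and 28.4 RPM on average. These intervals include changes of more than 2-fold either way for Adipoq, so equality with health is not shown.

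**Figure D3:**
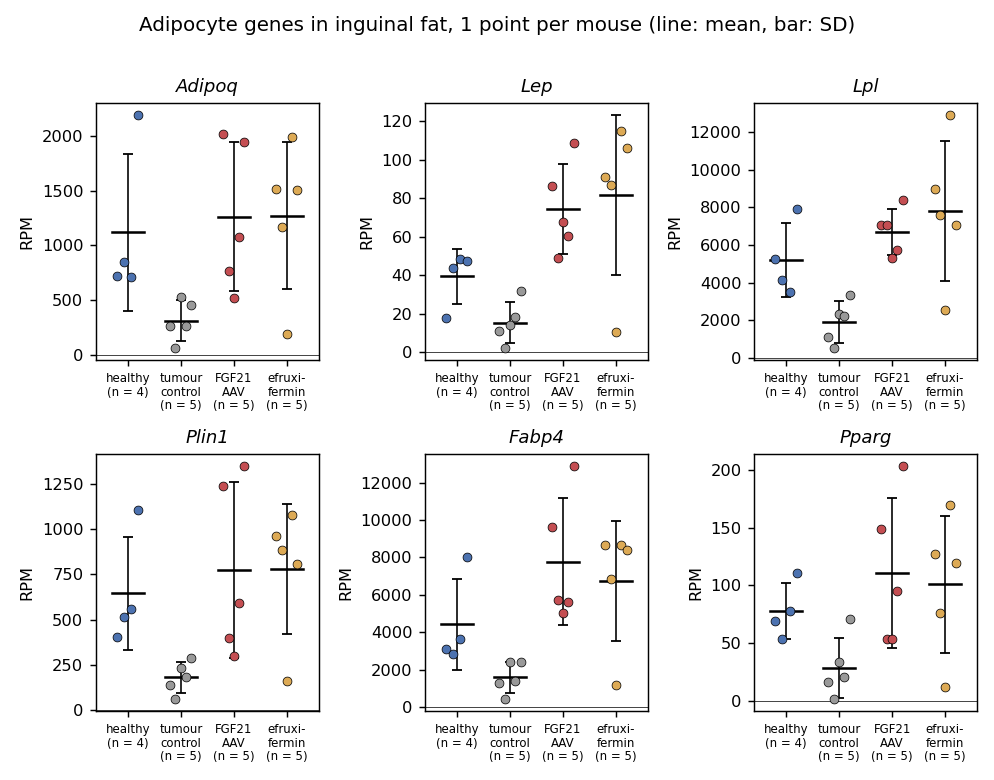
RPM of 6 adipocyte genes in each mouse, by group, with the mean (line) and SD (bar). FGF21 AAV mice share the range of healthy mice in Adipoq, Lpl, Plin1, Fabp4 and Pparg, and lie above it in Lep (48.7 to 109 RPM against 17.9 to 48.2 RPM).

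In 5 lists of adipocyte and lipid genes, limma, edgeR and DESeq2 called 0 members. Of the 8 adipocyte markers, 8 were above 0 (median 0.62), of 17 lipid uptake genes 12 (median 0.42), of 17 fatty acid synthesis genes 14 (median 0.46), of 14 triglyceride assembly genes 11 (median 0.46) and of 23 lipolysis and lipid droplet genes 16 (median 0.32). Of all 17013 genes, 5574 were above 0. At an unadjusted p under 0.05 by limma, 2 lipid uptake genes and 1 synthesis gene were higher, 1 triglyceride assembly gene was lower, and 0 adipocyte markers and 0 lipolysis and lipid droplet genes passed. Of all genes, 1.12% were higher and 4.22% lower at that threshold. In tumour controls, which were compared with the same healthy libraries, the medians were -1.58, -1.14, -0.48, -0.57 and -1.03. With the scores of B cells and muscle in the model the FGF21 AAV medians were 0.39, 0.05, -0.19, -0.12 and -0.08, so that 3 of the 5 turned sign. In bulk tissue, fewer cells of a type and less RNA per cell cannot be told apart.

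Some members of smallest p of these lists follow. Acacb, a mitochondrial acetyl-CoA carboxylase, had 44.0, 25.2, 42.4 and 122 RPM in healthy fat and 104, 182, 117, 171 and 272 RPM under FGF21 AAV. Only healthy mouse 4 reached the FGF21 AAV values (difference 1.68, limma adjusted p = 0.803). Acsl1 and Slc27a1, which activate and take up fatty acids, were 1.21 and 1.00 higher on the log2 scale (limma adjusted p = 0.919 each). Mogat1, an enzyme of triglyceride assembly, was the exception at -1.85, from 6.34 ± 4.22 RPM (SD, n = 4) to 1.43 ± 2.03 RPM (SD, n = 5). Cidec and Lipe, a droplet protein and the hormone-sensitive lipase, differed by 1.03 and 0.81, and Adrb1 and Abhd5, an adrenergic receptor and a cofactor of lipolysis, by 1.19 and 1.17. Ucp1, which codes for the uncoupling protein of heat-producing fat, had 4.76 RPM in FGF21 AAV mouse 5 and 0 reads in the other 8 libraries of the comparison, with 0.938 RPM in 1 efruxifermin mouse.

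No gene was called below health by limma with all 4 groups, or by edgeR, while DESeq2 called 10. Of these 10, 9 had no read under FGF21 AAV, among them Myod1 and Myf6, regulators of muscle formation. Neither Gas6 nor any collagen gene was among the 10. Several genes that were low in tumour controls lay below the healthy range under FGF21 AAV. Gas6, a ligand of the TAM receptors, had 376, 324, 492 and 701 RPM in healthy fat and 150, 143, 164, 204 and 139 RPM under FGF21 AAV. All FGF21 AAV mice were below all healthy mice, by -1.51 ± 0.36 on the log2 scale (limma adjusted p = 0.424). Gas6 was past the threshold in 1 of 26 alternatives, the fit with only the 9 libraries of the comparison (limma adjusted p = 0.0487). It was at 113 ± 73.9 RPM in tumour controls (-2.24 from health, limma adjusted p = 0.0102) and 145 ± 45.7 RPM with efruxifermin.

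Col6a3, a chain of collagen 6, had 141, 221, 276 and 347 RPM in healthy fat and 134, 28.3, 69.8, 67.9 and 121 RPM under FGF21 AAV. The groups did not overlap, though FGF21 AAV mouse 1 nearly reached healthy mouse 1 (difference -1.65 ± 0.42, limma adjusted p = 0.424). Col1a2, a chain of collagen 1, had 1330, 795, 605 and 1782 RPM against 490, 482, 333, 535 and 415 RPM, also without overlap (difference -1.21, limma adjusted p = 0.919). Of the 18 collagen genes, 4 had FGF21 AAV values wholly below healthy (22.2%, beside 1.73% of all genes) and 0 wholly above. The list's median was -0.86 under FGF21 AAV and -1.85 in tumour controls, and it stayed below 0 under every scaling run.

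Other matrix and stromal genes lay on the same side. Postn, a matrix protein of remodelling tissue, had 123 ± 80.4 RPM (SD, n = 4) in healthy fat and 26.1 ± 11.4 RPM (SD, n = 5) under FGF21 AAV (difference -2.01, limma adjusted p = 0.803). Lum, a collagen-binding proteoglycan, had 107, 82.4, 56.8 and 191 RPM against 21.2, 40.3, 34.2, 29.6 and 21.6 RPM, without overlap. Pdgfra, a receptor that marks fat progenitors, had 68.9, 50.1, 43.5 and 57.9 RPM against 43.5, 4.47, 10.9, 31.5 and 16.5 RPM. Its FGF21 AAV values were low except in mouse 1. Of 13 stromal progenitor genes, 12 were below 0 (median -0.65), and of 22 basement membrane and matrix genes 17 (median -0.37). Of all 17013 genes, 11439 were below 0 (median -0.22).

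Timp4, an inhibitor of matrix proteases, went the other way. It had 49.6, 21.5, 78.8 and 48.7 RPM in healthy fat and 79.4, 206, 148, 125 and 134 RPM under FGF21 AAV. The lowest FGF21 AAV value only just exceeded the highest healthy one, and the difference was 1.53 (limma adjusted p = 0.841).

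In tumour controls 8 genes fell against healthy fat (limma adjusted p under 0.05; 0.047% of genes). They are named outside the rule and are described under FGF21 AAV as values, since both comparisons share the healthy libraries. Alb, which codes for albumin, had 0.0542 ± 0.121 RPM in tumour controls (SD, n = 5), 32.6 ± 13.2 RPM in healthy fat (SD, n = 4) and 64.2 ± 44.4 RPM under FGF21 AAV (SD, n = 5). Npr3, the clearance receptor for natriuretic peptides, had 4.37 ± 3.29, 31.7 ± 14.8 and 47.6 ± 10.4 RPM in the same order. Both were thus above the healthy mean under FGF21 AAV, with overlap.

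Col5a3, a collagen chain, and Slc5a3, an inositol transporter, were near the healthy mean, at -0.31 and -0.22 on the log2 scale. Sncg, a synuclein of adipocytes, had 187, 225, 195 and 287 RPM in healthy fat and 152, 167, 44.1, 83.2 and 133 RPM under FGF21 AAV. Dapk1, a death-associated kinase, had 397, 226, 223 and 318 RPM against 143, 159, 176, 222 and 178 RPM. Neither overlapped between the groups, with FGF21 AAV below, though for Dapk1 only just (221.8 against 222.7 RPM). Acta2, smooth muscle actin, had 354 ± 96.4 RPM and 182 ± 49.4 RPM, with overlap of 1 healthy mouse. Tumour controls were lower still, at 32.7, 102 and 91.1 RPM on average for Sncg, Dapk1 and Acta2.

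**Figure D4:**
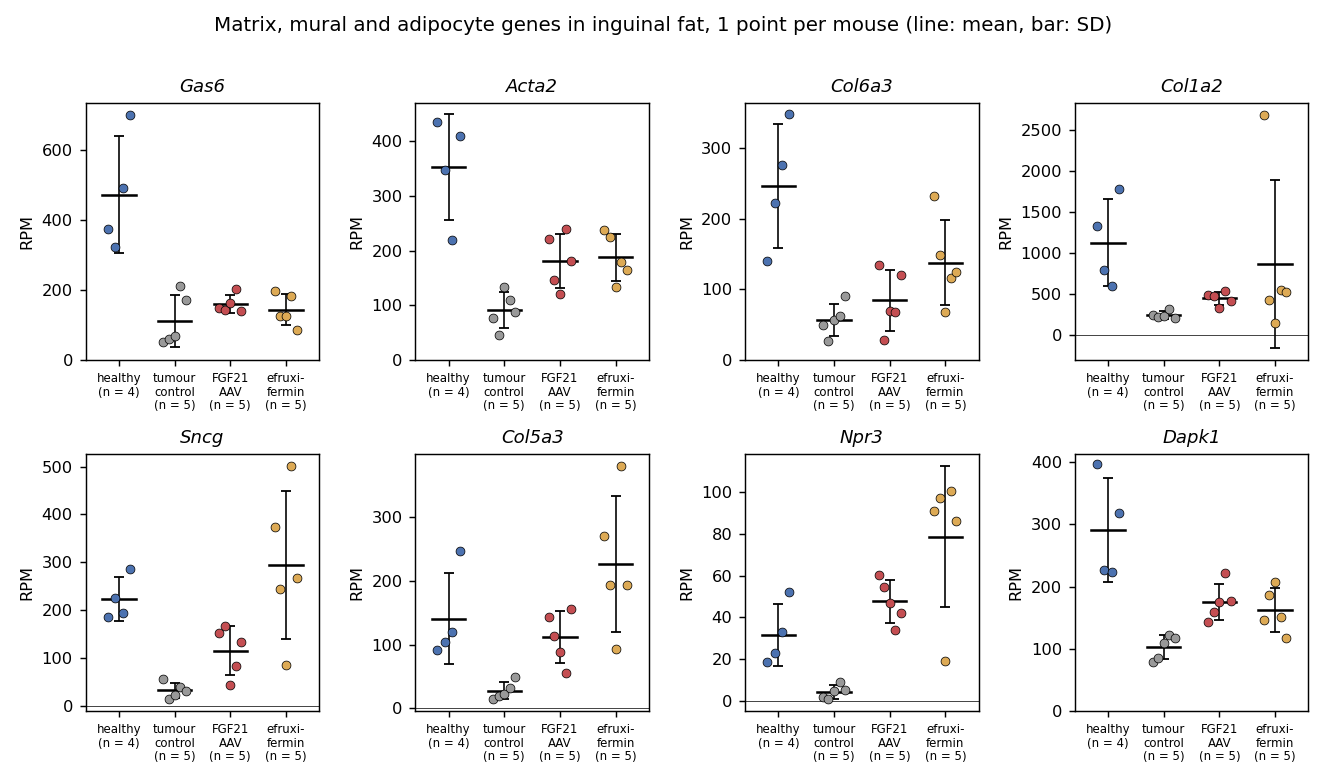
RPM of 8 genes in each mouse, by group, with the mean (line) and SD (bar). In Gas6, Col6a3, Col1a2, Sncg and Dapk1 all FGF21 AAV mice lie below all healthy mice, in Dapk1 only just (221.8 against 222.7 RPM). Col5a3 and Npr3 share the healthy range.

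Other genes lay further below health under FGF21 AAV than in tumour controls. Nr4a1, an immediate early nuclear receptor, had 50.3, 40.8, 60.1 and 53.5 RPM in healthy fat and 24.8, 2.49, 7.92, 4.67 and 18.1 RPM under FGF21 AAV. All FGF21 AAV mice were lower (difference -2.41 ± 0.60, limma adjusted p = 0.424). Tumour controls were at 60.1 ± 62.9 RPM, with 170 RPM in tumour control 4 and 11.7 to 47.0 RPM in the rest. On the log2 scale they were at -0.28 from health. Mcm5, a subunit of the replication helicase, had 3.16, 20.4, 34.9 and 29.7 RPM against 2.88, 0, 0, 2.49 and 0 RPM, with tumour controls at 27.4 ± 22.0 RPM. Healthy mouse 1 was close to the FGF21 AAV values, and DESeq2 called Mcm5 lower (adjusted p = 0.0490). The cell cycle list had 23 of 26 members below 0 (median -0.82, tumour controls 0.92), beside B cell markers at -0.85 and 2.54. Over all genes 11439 of 17013 were below 0. With the scores of B cells and muscle in the model the cell cycle median was -0.47, beside -0.0066 for B cell markers. The B cell score is the mean over these same markers, so their value near 0 was fixed in advance. In libraries without lymph node RNA the cell cycle median was -1.04, beside 0.39 for B cell markers.

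Cnot8, a deadenylase subunit, had 59.1, 64.6, 65.8 and 45.8 RPM against 29.1, 16.4, 32.2, 19.005 and 10.2 RPM. Adgrl1, a latrophilin receptor, Snu13, a protein of small ribonucleoprotein particles, and Gm3617 were likewise wholly lower, by -1.24, -1.49 and -2.87 on the log2 scale. None was called by limma (adjusted p = 0.424 to 0.738). In tumour controls Cnot8, Adgrl1, Snu13 and Gm3617 were at -0.67, -0.46, -0.21 and -1.90 from health on the same scale.

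Actn2 and Ckmt2, genes of striated muscle, were wholly lower under FGF21 AAV, and so was Cox7a1, a muscle form of a respiratory chain subunit. Ckmt2 had 168, 2.60, 40.6 and 20.9 RPM in healthy fat and a single non-zero value of 0.312 RPM under FGF21 AAV. Of the 15 skeletal muscle markers, 15 were lower at an unadjusted p under 0.05 by limma (4.22% of all genes), and limma, edgeR and DESeq2 called 0 (median -5.53). Actn2 and Ckmt2 were each past the threshold in 1 of 26 alternatives, the fit without tumour control 4 and efruxifermin 3 (limma adjusted p = 0.0358 and 0.00956). That fit was chosen after seeing the data. Both libraries left out held the most muscle RNA of their groups, 127112 and 41647 RPM over the list. DESeq2 called Myod1 and Myf6, regulators of muscle formation outside the list, lower. With the scores of B cells and muscle in the model the median of this list was 0.09. The muscle score is the mean over these same 15 genes, so a value near 0 was fixed in advance. Healthy mouse 1 held the most muscle RNA, 50740 RPM over the list, and among FGF21 AAV mice it was mouse 4, with 3090 RPM.

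Transcripts of blood and liver lay above health. Of the 6 red blood cell genes, 6 were higher at an unadjusted p under 0.05 by limma (1.12% of all genes), and limma, edgeR and DESeq2 called 0 (median 1.504, tumour controls 0.22). Alas2, the first enzyme of haem synthesis in red cells, had 10.9, 0.371, 11.2 and 11.4 RPM in healthy fat and 27.0, 26.9, 48.0, 34.3 and 32.4 RPM under FGF21 AAV. The groups did not overlap (difference 2.27, limma adjusted p = 0.569). Of 14 liver plasma protein genes, 14 were above 0 (median 1.27), 4 were higher at an unadjusted p under 0.05, and limma, edgeR and DESeq2 called 0, while tumour controls had a median of -1.31. Ttr, transthyretin, had 3.16, 1.11, 1.80 and 4.76 RPM against 1.44, 74.1, 17.3, 14.955 and 18.7 RPM, and only FGF21 AAV mouse 1 lay in the healthy range. Hp, haptoglobin, which fat also makes, had 117 ± 97.6 RPM (SD, n = 4) and 455 ± 340 RPM (SD, n = 5).

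**Figure D5:**
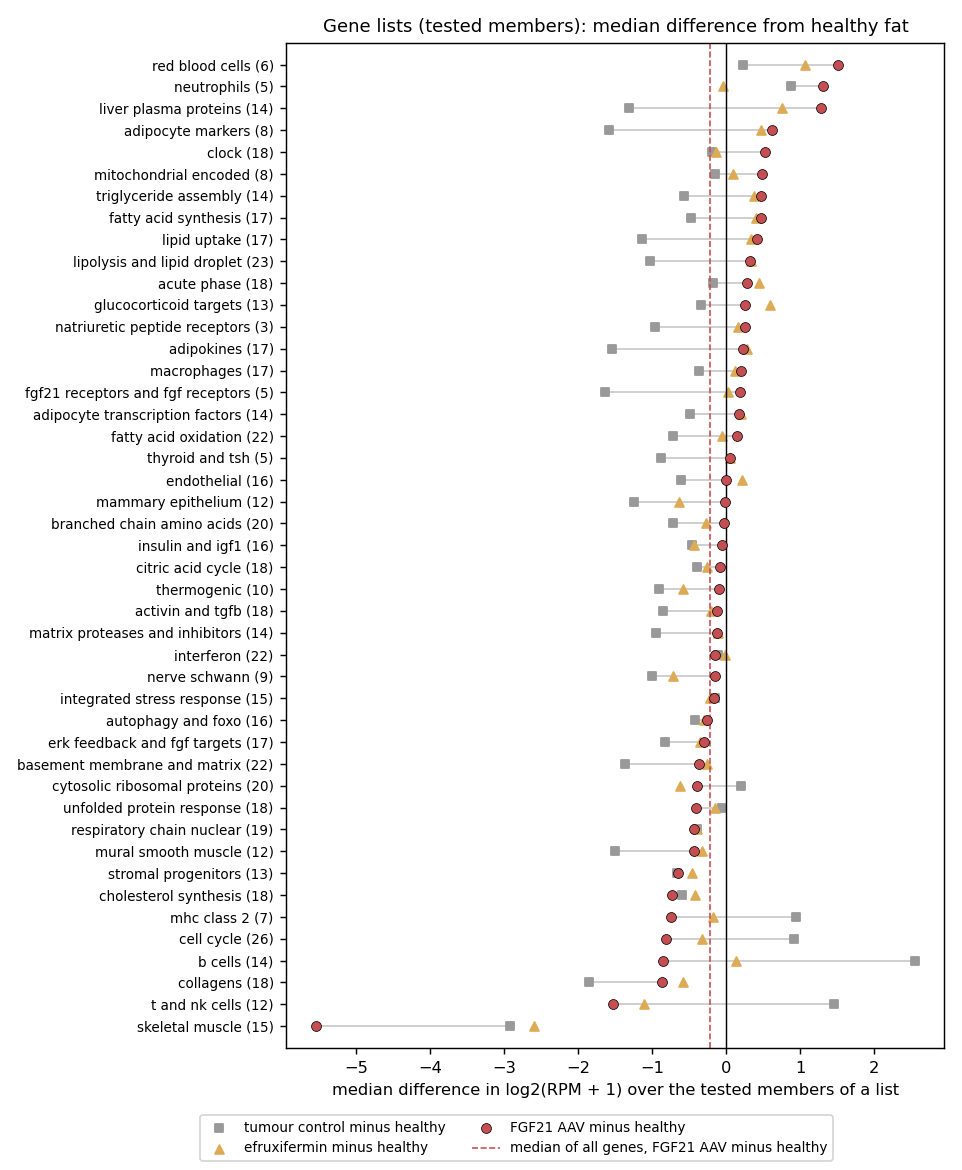
Median difference from healthy fat in log2(RPM + 1) over the tested members of each of 45 lists (number tested in brackets), under FGF21 AAV (circles), in tumour controls (squares) and with efruxifermin (triangles), all against the same healthy libraries. The dashed line is the median of all genes under FGF21 AAV, -0.22. Lipid lists lie to the right of it under FGF21 AAV, collagens and skeletal muscle to the left.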

How the data were processed

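RNA of whole inguinal fat was sequenced from the 3' end (QuantSeq 3' kit, FWD, per the labels' protocols). The submitters' processing notes name cutadapt, FastQC, HISAT2, HTSeq and GRCm39, and the strand setting is not given in the sources used here, so reads of overlapping genes and near-identical copies are uncertain. The deposited table gives RPM, reads scaled by the library total per the labels, for 24844 genes and 19 libraries. Values of up to 1000 reads were whole multiples of 1 read within 0.05 in 100% of cases, and the reads recovered from them summed to 2011067 to 3693864 per library. Limits from a count of 0 (3 reads over the group) cover counting error only, since PCR copies cannot be told from separate molecules here.

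Genes at 1 RPM or more in at least 4 libraries (17013) were fitted by limma 3.58.1 in R 4.3.3 with its trend option on log2(RPM + 1), all 4 groups together, with the contrast FGF21 AAV minus healthy, two-sided. A gene was called where its p, adjusted by Benjamini and Hochberg across every gene tested, was under 0.05. Fold changes on this scale are too small for low genes, and intervals are 95% intervals of the fit. Alternatives were other pseudocounts, filters and scalings, edgeR 4.0.16 and DESeq2 1.42.0 on the recovered reads, covariates, other sets of libraries and a replicate block. The pipeline was tested on simulated data.

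The members, the 45 gene lists and the alternatives were chosen with earlier results of these data known. Named genes were Fgf21, Fgfr1, Klb, Ucp1 and 6 fat genes, up to 15 called genes each way, the 10 uncalled genes of smallest p each way whose groups did not overlap (mean of 5 RPM or more over the 9 libraries), and the 2 members of smallest p of each list, of which only some are printed. Some genes that met the rule are not reported here. Other genes in the text (further members of lists, genes called in tumour controls, and Gm42418) were chosen after their values were seen. RefSeq promoter windows carry their own build, and no other coordinates are given.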

Additional observations from a re-analysis of the deposited data

Results flagged for a closer look

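A value is listed here where 1 library of a group lay far from the others, by a gap that chance exceeds in about 1 in 20 groups. Of 151 groups of values looked at (named genes and library measures), 9 were of this kind, which is near that share. Arntl was at 20.2 RPM in healthy mouse 4, with the next lowest healthy mouse at 65.8 RPM. The same mouse had the highest Adipoq, 2192 RPM against 851 RPM in the next, and the fewest genes detected, 15694 against 16820 in the next. Lep was at 17.9 RPM in healthy mouse 1, below 43.8 RPM in the next, and Alas2 at 0.371 RPM in healthy mouse 2, below 10.9 RPM in the next. Under FGF21 AAV, mouse 4 was flagged for the muscle genes Actn2, at 6.54 RPM against 0.359 RPM in the next, and Ckmt2, at 0.312 RPM against 0 in the others. That Ckmt2 value is 1 read. Ucp1 had 4.76 RPM in FGF21 AAV mouse 5 and 0 in the other mice of the group. The T and NK cell score was 5.28 in FGF21 AAV mouse 1 and at most 1.59 in the others.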

How the results depend on the processing

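The counts of genes called (2 in all, 2 higher, 0 lower) were 2, 2 and 0 with pseudocounts of 0.25 and 5, with a filter of 5 RPM and with the share of Gm42418 in the model, though only 1 of the 2 genes was then shared. In the same order they were 6, 2 and 4 without a filter, 4, 4 and 0 with TMM scaling, 3, 3 and 0 with median-of-ratios scaling, and 5, 5 and 0 both with quantile normalization and without Gm42418 and mitochondrial genes. They were 1, 1 and 0 by edgeR and with B cell and muscle scores in the model, 23, 13 and 10 by DESeq2, 5, 4 and 1 with only the 9 libraries, and 0, 0 and 0 both with and without lymph node RNA. Leaving out 1 library gave 1 to 8, 1 to 7 and 0 to 1, with 8 without FGF21 AAV 1. Without tumour control 4 and efruxifermin 3 they were 9, 7 and 2. That fit and the Gm42418 fit were chosen after seeing the data. The causes were not tested, except that the smaller sets hold fewer samples. The median of all genes was -0.22, and -0.10 with TMM scaling, -0.06 by DESeq2 and 0.00326 with quantile normalization. Dbp kept its direction under 26 alternatives (2.68 to 3.46) and was past the threshold in 24, and Per3 (1.67 to 2.35) in 13.

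The labels do not say whether replicate numbers pair the mice. Of 4 pairs with the same number 0 correlated over 0.1 (-0.356 to 0.0707), and of 16 other pairs 4 did. So few pairs, in libraries that differ in lymph node and muscle RNA, cannot decide whether the mice were paired. With numbers as a replicate block the counts were 1, 1 and 0, and Adipoq and Plin1 turned to -0.029 and -0.062 on the log2 scale. Differences near 0 turned sign elsewhere. With B cell and muscle scores Adipoq was at -0.24, Cry2 at -0.045, Fgfr1 at -0.025, Klb at 0.63 and Plin1 at -0.26. Within libraries with lymph node RNA Col5a3 was at 0.00905, Cry1 at 0.57, Cry2 at -0.17 and Klb at 0.78, and within those without it Adipoq was at -0.11 and Fgfr1 at -0.25. With the share of Gm42418 Cry2 was at -0.32, Fgfr1 at -0.093 and Klb at 1.04. Leaving out 1 library gave -0.056 to 0.54 for Adipoq, -0.14 to 0.42 for Plin1 and -0.039 to 0.46 for Fgfr1.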

Other observations

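Genes of signalling downstream of FGF receptors and of glucocorticoids also held members away from health, in both directions. None of them was called in the limma fit of all 4 groups without covariates. Dusp4, a phosphatase that ERK signalling induces, had 3.16, 3.71, 4.68 and 7.33 RPM in healthy fat and 12.9, 37.3, 16.3, 20.6 and 31.1 RPM under FGF21 AAV. The groups did not overlap, with a difference of 2.06 on the log2 scale (limma adjusted p = 0.738), and tumour controls had 5.37 RPM on average. Egr1, an early gene of the same pathway, differed by -1.33 (limma adjusted p = 0.919), and the median over the 17 ERK feedback and FGF target genes was -0.30, beside -0.22 over all genes. Fgfr2, another FGF receptor, had 83.8 ± 32.7 RPM (SD, n = 4) in healthy fat and 215 ± 103 RPM (SD, n = 5) under FGF21 AAV, with overlap.

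Hsd11b1, named outside the rule, regenerates active glucocorticoid in fat. It had 30.6, 77.2, 44.2 and 49.5 RPM in healthy fat and 342, 96.5, 128, 151 and 373 RPM under FGF21 AAV, without overlap (difference 1.96, limma adjusted p = 0.919). It was past the threshold in 3 of 26 alternatives. These were DESeq2 (adjusted p = 0.0493), the fit without tumour control 4 and efruxifermin 3 (limma adjusted p = 0.0358) and the fit with the share of Gm42418 (limma adjusted p = 0.0277, difference 3.596). The fits other than DESeq2 were chosen after seeing the data. Fkbp5, a glucocorticoid target, had 31.3 ± 19.2 RPM (SD, n = 4) and 64.8 ± 24.97 RPM (SD, n = 5), and tumour controls 63.6 RPM on average. Of 13 glucocorticoid target genes, 9 were above 0 and 4 below (median 0.26, beside -0.22 over all genes). The lowest was Pdk4, with 50.3 ± 44.6 RPM (SD, n = 4) in healthy fat and 7.35 ± 4.59 RPM (SD, n = 5) under FGF21 AAV. Its difference was -2.37 on the log2 scale (limma adjusted p = 0.855). Among healthy mice Pdk4 was highest in mouse 1, at 114 RPM, which held the most muscle RNA. It was lowest in mouse 2, at 10.0 RPM, which held the least. Under FGF21 AAV the highest value, 12.4 RPM, was in mouse 5 and not in mouse 4, which held the most muscle RNA. The part of muscle RNA in this difference was not tested. Of 18 unfolded protein response genes, 16 were below 0 (median -0.41), and of 15 integrated stress response genes 11 (median -0.17, above that of all genes). Pdia6, a folding enzyme, had 212, 195, 267 and 326 RPM against 190, 124, 140, 129 and 157 RPM, and Atf4, the main factor of the integrated stress response, 142, 191, 233 and 138 RPM against 118, 125, 135, 114 and 95.9 RPM. Both were wholly lower and limma called neither (limma adjusted p = 0.919 each). Of 18 cholesterol synthesis genes, 17 were below 0 (median -0.73). These counts stand beside 11439 of all 17013 genes below 0. Mbp, the myelin basic protein gene, had 143 ± 76.1 RPM (SD, n = 4) in healthy fat and 52.3 ± 23.7 RPM (SD, n = 5) under FGF21 AAV (difference -1.39, limma adjusted p = 0.580).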
